A study of Mus musculus with 2 samples.

Results

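Genomic imprinting is the restriction of a gene's expression to the allele inherited from a single parent. The 32 imprinted protein-coding genes described here were taken as a list of gene names whose rule used no measured value, although it was drawn up with earlier results of these data known, and all 32 were found among the 20250 protein-coding genes of the table, where they were represented by 61 of its 26968 protein-coding transcripts. RNA-seq was performed on 1 library from *Ebf1* -/- pre-pro-B cells, derived from female embryonic (E13.5) liver, and 1 library from *Rag2* -/- pro-B cells, derived from adult male bone marrow. Both were on a C57BL/6 background and were grown on OP-9 stromal cells, pre-pro-B cells with Il-7, Scf and Flt3l and pro-B cells with Il-7 alone. Cell type therefore cannot be told apart from genotype, sex, age, tissue of origin and cytokines, and with 1 library for each cell type there is no replicate spread, so no difference below was tested and none carries a p-value.

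In imprinted domains, a control region that is methylated in the egg or the sperm directs which parental copy is transcribed, and long non-coding RNAs or the insulator protein Ctcf often act on a whole cluster of genes. Many imprinted genes are known for fetal and placental growth, paternally expressed ones such as *Igf2* often promoting it and maternally expressed ones such as *Igf2r*, *Grb10* and *Cdkn1c* restraining it, and many of them are abundant before birth and become low afterwards. In blood, members of the family are known from stem cells of fetal liver and adult marrow. Levels are given as FPKM, fragments per kilobase of transcript scaled to the number of reads, which do not separate the parental alleles, so nothing below speaks to allelic expression. Differences are log2(FPKM + 1) in pro-B minus pre-pro-B cells, with FPKM summed over the protein-coding transcripts of a gene.

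Each cell type carried the genes that mark it. All 9 pro-B markers were over 2-fold higher in the pro-B library, *Pax5* with 239 FPKM against 1.13 in pre-pro-B cells, and all 6 multipotent progenitor markers with at least 1 FPKM were over 2-fold lower there, *Flt3* with 303 FPKM in the pre-pro-B library against 0.916 in the pro-B library. The targeted gene *Ebf1* had 64.0 FPKM in the *Ebf1* -/- library and 273 in the other, and *Rag2* had 22.9 FPKM in the *Rag2* -/- library and 34.5 in the other, so neither was listed at 0, and the values do not show which part of either gene the reads came from. The FPKM corresponded to some 81.9 M fragments for pre-pro-B and 74.4 M for pro-B.

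A start-site window of each of *Igf2r*, *Grb10*, *Ddc* and *Commd1*, all of them genes past 2-fold between the libraries, is shown. The windows were picked to range from few to many CpG, CpG being the dinucleotide whose methylation carries the imprint. The *Igf2r*, *Grb10* and *Commd1* windows are the CpG-richest of their genes, and the *Ddc* window is the poorest of its gene. They run from 250 bases before to 50 bases after the start of a RefSeq transcript, 5′ to 3′ on the strand of the gene, all 4 on the minus strand of GRCm38.p6, at chr17:12769657-12769956, chr11:12037371-12037670, chr11:11898095-11898394 and chr11:22982235-22982534 in that order. Capitals mark every CpG and the hexamer TGCCGC, on either strand (GCGGCA on the other), which is known, when methylated, as the recognition sequence of Zfp57, a zinc finger protein that protects methylated imprints.
*Igf2r*: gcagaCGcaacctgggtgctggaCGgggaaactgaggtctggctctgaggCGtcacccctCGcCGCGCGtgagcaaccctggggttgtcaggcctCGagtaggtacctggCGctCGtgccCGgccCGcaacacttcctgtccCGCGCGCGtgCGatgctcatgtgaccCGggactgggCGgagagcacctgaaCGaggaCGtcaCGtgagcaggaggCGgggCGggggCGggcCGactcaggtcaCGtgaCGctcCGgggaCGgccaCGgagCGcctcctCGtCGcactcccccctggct
*Grb10*: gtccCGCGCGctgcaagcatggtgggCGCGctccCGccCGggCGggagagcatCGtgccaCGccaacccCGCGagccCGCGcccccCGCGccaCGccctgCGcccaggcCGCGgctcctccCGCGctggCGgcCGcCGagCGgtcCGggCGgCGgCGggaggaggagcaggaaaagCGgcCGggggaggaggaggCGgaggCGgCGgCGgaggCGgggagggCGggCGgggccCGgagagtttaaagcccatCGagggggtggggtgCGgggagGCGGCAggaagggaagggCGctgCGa
*Ddc*: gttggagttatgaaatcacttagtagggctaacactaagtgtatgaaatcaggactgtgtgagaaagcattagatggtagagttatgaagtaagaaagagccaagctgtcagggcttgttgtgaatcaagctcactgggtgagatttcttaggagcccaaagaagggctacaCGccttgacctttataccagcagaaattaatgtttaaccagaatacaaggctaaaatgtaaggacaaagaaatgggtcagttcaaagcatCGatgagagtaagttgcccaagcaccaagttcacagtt
*Commd1*: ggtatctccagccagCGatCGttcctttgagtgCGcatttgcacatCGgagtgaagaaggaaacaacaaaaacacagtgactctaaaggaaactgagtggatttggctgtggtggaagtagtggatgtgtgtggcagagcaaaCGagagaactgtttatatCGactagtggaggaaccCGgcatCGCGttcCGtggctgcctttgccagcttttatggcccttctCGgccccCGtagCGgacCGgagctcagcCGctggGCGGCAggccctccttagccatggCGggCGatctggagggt
The *Igf2r* window held 34 CpG and no hexamer, and that of *Grb10* held 45 CpG and 1 hexamer. The *Ddc* window held 2 CpG and no hexamer, and the *Commd1* window held 18 CpG and 1 hexamer. Another *Ddc* window held 5 CpG, another *Grb10* window 9 and another *Commd1* window 17. The range shown thus rests partly on the choice of windows.

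Of the 32 genes, 13 (40.6%) reached at least 1 FPKM in either library, against 52.0% of all genes, and 6 (18.8%) reached at least 10, against 33.5% of all genes. All 13 did so in pre-pro-B cells and 8 of them in pro-B cells. The 5 that did so in pre-pro-B cells alone were *Ddc*, *Grb10*, *Igf2*, *Mkrn3* and *Peg12* (15.6% of the members, against 5.83% of all genes), and 0 did so in pro-B cells alone (against 2.45% of all genes). The median FPKM of the 32 members was 0.156 in the pre-pro-B library and 0.0148 in the pro-B library, where all genes had medians of 0.902 and 0.389. The levels were very unequal, the 5 highest members holding 91.2% of the members' sum (429 FPKM) in the pre-pro-B library and 96.2% (of 488 FPKM) in the pro-B library.

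**Figure D1:**
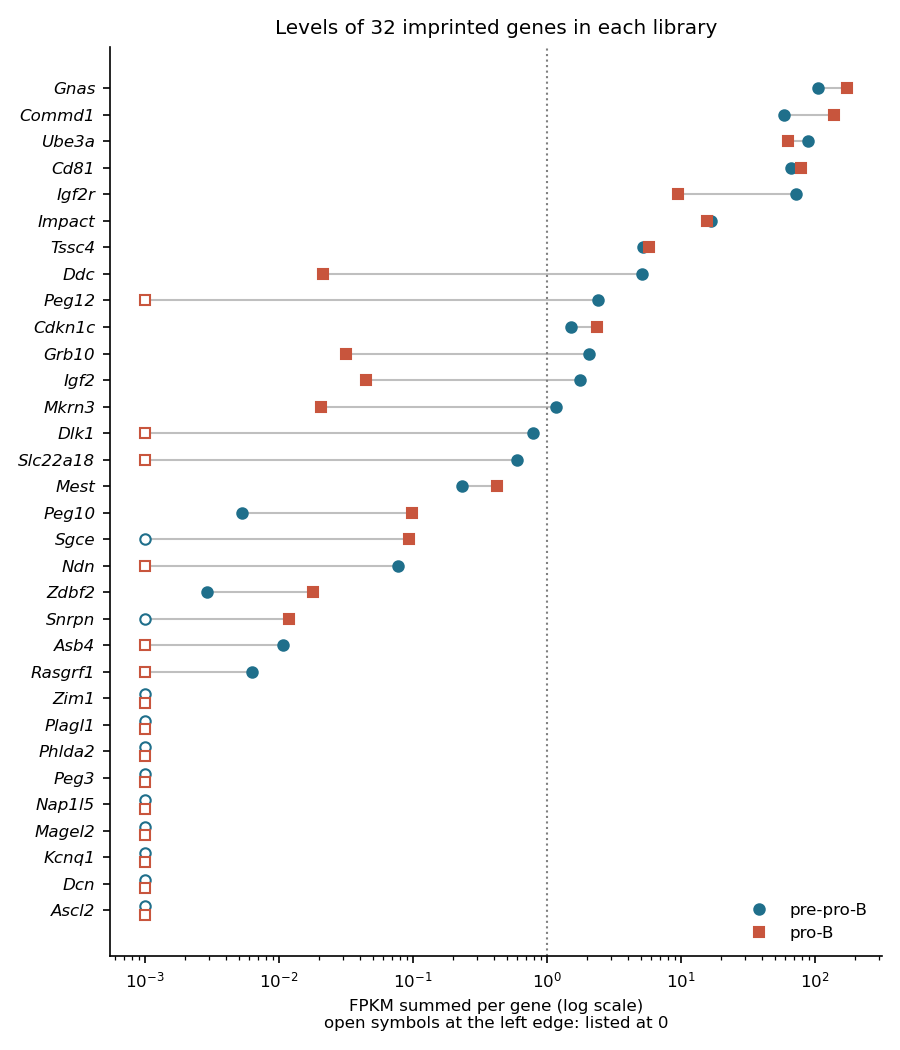
FPKM of each of the 32 imprinted genes (rows, ordered by the higher of their values) in pre-pro-B cells (circles) and pro-B cells (squares), on a log axis. The dotted line is 1 FPKM, and open symbols at the left edge are values listed at 0. Of the 13 genes right of the line, 5 cross it, all from pre-pro-B to pro-B cells, and 9 genes lie at the left edge in both libraries.

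At 2-fold, among genes with at least 1 FPKM in either library, 6 of the 13 members were lower in pro-B cells (*Ddc*, *Grb10*, *Igf2*, *Igf2r*, *Mkrn3* and *Peg12*), against a background of 19.1% of 10528 genes, and 1 was higher (*Commd1*), against a background of 12.2%. Since 5 of those 6 passed the limit on low FPKM only through pre-pro-B cells, they had to be lower in pro-B cells, and their number is no support for a difference of the family. Among genes with at least 1 FPKM in both libraries, 8 members remained, of which 1 was lower (*Igf2r*, background 11.3% of 8852 genes) and 1 was higher (*Commd1*, background 10.4%). With no limit on low FPKM, 6 of 32 members (18.8%) were lower against 9.94% of 20250 genes, and 1 (3.12%) was higher against 6.34%. The median difference was -0.49 over the 13 members and -0.14 over all genes under the same limit, but 0.20 over the 8 members with at least 1 FPKM in both libraries, where it was -0.08 over all genes, so the sign of the members' median turned on the limit.

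**Figure D2:**
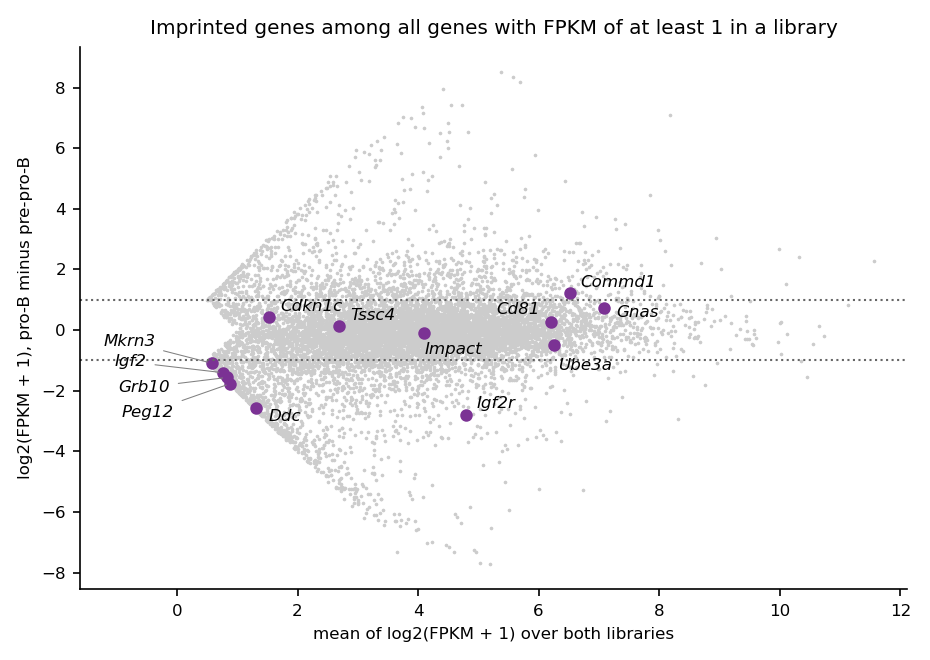
Difference in log2(FPKM + 1), pro-B minus pre-pro-B, against its mean over both libraries, for all 10528 genes with at least 1 FPKM in either library (grey) and the 13 members among them (purple). Dotted lines mark 2-fold. *Igf2r* lies apart from the other lower members, which sit at the low-level edge of the cloud, where a gene near 0 in pro-B cells must lie.

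The first group of members were fetal growth factors and genes that restrain growth or relay its signals, 8 genes of which 5 had at least 1 FPKM and 3 were lower in pro-B cells. Of all genes under the same limit, 19.1% were lower. *Igf2* and *Grb10* had passed it through pre-pro-B cells alone and had to be lower, so the count is no support for a difference of this group. *Igf2r* (chromosome 17, 12875272 to 12962530, minus strand, on mm9 as are all gene positions here) encodes the receptor that takes Igf2 up for degradation and carries mannose 6-phosphate tagged enzymes to lysosomes. Its single transcript had 71.9 FPKM in the pre-pro-B library (Cuffdiff's 95% interval 5.92 to 185) against 9.57 in the pro-B library (0.593 to 23.7). The level was thus 7.51-fold higher in pre-pro-B cells, a difference of -2.78 on the log2(FPKM + 1) scale, although the intervals overlapped. It was above 95.9% of all genes in pre-pro-B cells and above 71.3% in pro-B cells, and was the only one of the lower members with at least 10 FPKM in a library.

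*Igf2* (chromosome 7, 149836673 to 149852721, minus strand), the fetal growth factor that Igf2r removes, had 1.76 FPKM in the pre-pro-B library against 0.0445 in the pro-B library, a difference of -1.40. Most of it lay on NM_001122737, with 1.42 FPKM in the pre-pro-B library (interval 0 to 4.05) against 0.0437 in the pro-B library (0 to 0.139). *Grb10* (chromosome 11, 11830511 to 11938686, minus strand) encodes an adaptor that dampens insulin and Igf1 receptor signalling, and its FPKM was 2.04 in the pre-pro-B library against 0.0315 in the pro-B library, a difference of -1.56. Here the transcript with nearly all of the level had an interval of 0.0288 to 4.82 in the former and 0 to 0.105 in the latter. In both genes the pro-B level rested on few fragments, about 13.1 for *Igf2* and fewer for *Grb10*.

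*Cdkn1c* (chromosome 7, 150644255 to 150646955, minus strand), which encodes the cell cycle inhibitor p57, had 1.51 FPKM in the pre-pro-B library against 2.35 in the pro-B library, a difference of 0.42 and within 2-fold. *Gnas* (chromosome 2, 174109821 to 174172245, plus strand), a locus with several imprinted start sites that encodes the stimulatory G protein alpha subunit, was the member with the highest level in both libraries, with 105 FPKM in the pre-pro-B library against 173 in the pro-B library. Its difference of 0.72 was within 2-fold. The other 3 genes of this group were *Dlk1*, *Phlda2* and *Rasgrf1*, all below 1 FPKM in both libraries.

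In both *Gnas* and *Cdkn1c*, a sum within 2-fold covered transcripts that differed in opposite directions. NM_001077510 of *Gnas* (1704 bases) had 75.3 FPKM in the pre-pro-B library (interval 0.770 to 186) against 0.0297 in the pro-B library, whereas NM_201616 (1746 bases) had 28.0 (0 to 98.1) and 171 (2.26 to 391). A non-coding *Gnas* transcript outside the sum, NR_003258, had 83.8 FPKM in the pre-pro-B library against 188 in the pro-B library. It stood above each protein-coding transcript of *Gnas* in both libraries. With non-coding transcripts added, the difference of *Gnas* was 0.94. For *Cdkn1c*, NM_009876 (1904 bases) had 1.51 FPKM in the pre-pro-B library (interval 0 to 3.91) against 0.000616 in the pro-B library, and NM_001161624 (1942 bases) had 0.000546 and 2.35 (0 to 6.09). The transcripts of each pair are close in length and lie at the same gene, and Cuffdiff divides shared reads between them, so the split within a gene is less certain than its sum. For some of the low values Cuffdiff gave limits of 0 to 0 that do not contain the value, as for NM_001077510 in pro-B cells.

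**Figure D3:**
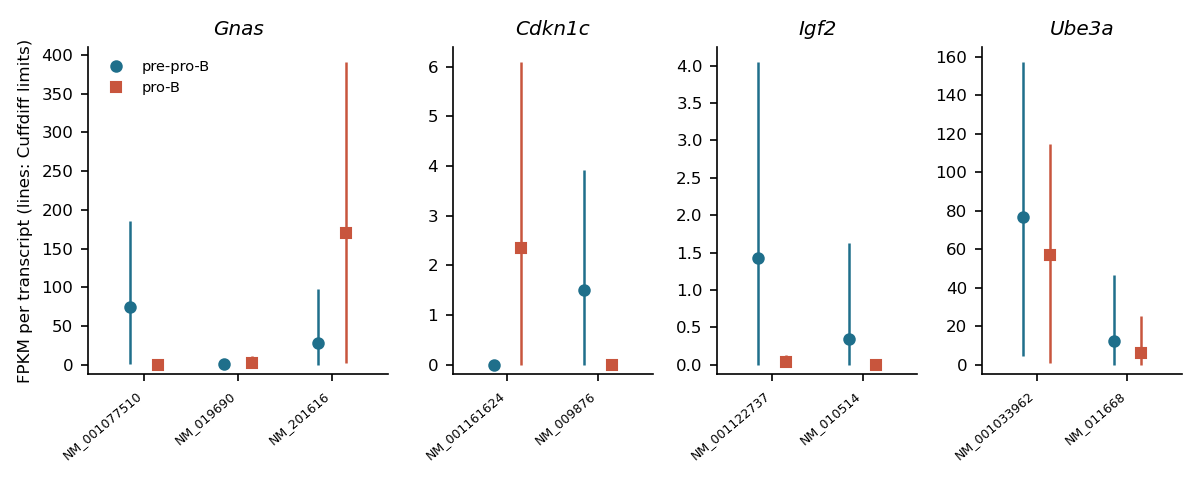
FPKM of the protein-coding transcripts of *Gnas*, *Cdkn1c*, *Igf2* and *Ube3a* that reached 0.3 FPKM in a library, in pre-pro-B cells (circles) and pro-B cells (squares), on linear axes of different range. Lines are Cuffdiff's 95% intervals. The leading protein-coding transcript differs between the libraries for *Gnas* (75.3 against 171) and *Cdkn1c* (1.51 against 2.35) and is the same for *Ube3a*. A non-coding *Gnas* transcript with a higher FPKM in both libraries is not drawn.

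The second group were mostly genes of RNA processing, protein turnover and translation, with *Peg12* of the Wnt pathway placed among them. Of its 9 genes 5 had at least 1 FPKM, with 1 higher, 1 lower (*Peg12*) and 3 within 2-fold. Of all genes under the same limit, 12.2% were higher and 19.1% lower, and *Peg12* had passed it through pre-pro-B cells alone. *Commd1* (chromosome 11, 22734744 to 22882382, minus strand), which encodes a protein of copper handling that also restrains NF-kappaB, was the only member over 2-fold higher in pro-B cells. Its FPKM was 58.8 in the pre-pro-B library (interval 2.37 to 161) against 138 in the pro-B library (5.12 to 370), a 2.35-fold higher level with overlapping intervals and a difference of 1.22. *Zrsr1*, the imprinted gene that lies in an intron of *Commd1*, had 5.79 FPKM and 7.37 in the same order, a difference of 0.30.

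*Peg12* (chromosome 7, 69606757 to 69609396, minus strand), a member of the Frat family of Wnt pathway proteins, had 2.40 FPKM in the pre-pro-B library (interval 0.0449 to 4.73) and was listed at 0 in pro-B cells. *Ube3a* (chromosome 7, 66484122 to 66562097, plus strand) encodes a ubiquitin ligase whose imprinting is known from neurons, and its FPKM was 89.3 in the pre-pro-B library against 63.2 in the pro-B library, a difference of -0.49. Both of its transcripts were lower in pro-B cells, NM_001033962 with 77.0 FPKM and 57.1 and NM_011668 with 12.3 and 6.13, and their intervals overlapped. *Impact* (chromosome 18, 13130761 to 13151457, plus strand), an inhibitor of the kinase Gcn2, stood at 16.7 and 15.6, a difference of -0.09 and the smallest among the 13. *Tssc4* (chromosome 7, 150255154 to 150256998, plus strand) had 5.17 FPKM and 5.79, a difference of 0.14, spread over 3 transcripts. Each of *Ube3a*, *Impact* and *Tssc4* was within 2-fold between the libraries, and *Snrpn*, *Peg10*, *Nap1l5* and *Asb4* completed the group at an FPKM below 1 in both.

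Among 7 enzymes, membrane and matrix proteins, 2 had at least 1 FPKM. *Ddc* (chromosome 11, 11714104 to 11798047, minus strand), the decarboxylase that makes dopamine and serotonin, had 5.10 FPKM in the pre-pro-B library against 0.0215 in the pro-B library, a difference of -2.58. Its main transcript had an interval of 0 to 12.4 in the former and 0 to 0.0764 in the latter, and the pro-B value corresponded to about 3.35 fragments. *Cd81* (chromosome 7, 150238644 to 150253839, plus strand), a tetraspanin of the cell surface, had 66.3 FPKM in the pre-pro-B library (interval 3.36 to 130) against 79.2 in the pro-B library (6.69 to 153). Its difference of 0.25 was within 2-fold, and the intervals overlapped. *Mest*, *Sgce*, *Slc22a18*, *Kcnq1* and *Dcn* were below 1 FPKM in both libraries.

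Of 6 zinc finger and transcription factor genes, *Mkrn3* alone had at least 1 FPKM. *Mkrn3* (chromosome 7, 69562479 to 69565039, minus strand), a ring finger gene known for the timing of puberty, had 1.17 FPKM in the pre-pro-B library (interval 0 to 2.87) against 0.0205 in the pro-B library, about 4.17 fragments, a difference of -1.09. *Peg3*, *Plagl1*, *Zim1* and *Ascl2* were listed at 0 in both libraries. Neither MAGE family gene, *Ndn* or *Magel2*, reached 1 FPKM.

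Of the 19 members below 1 FPKM in both libraries, the highest in pre-pro-B cells was *Dlk1*, a Notch ligand-like fetal growth regulator, with 0.784 in the pre-pro-B library against 0 in the pro-B library, and the highest in pro-B cells was *Mest*, with 0.234 and 0.425. *Slc22a18* had 0.599 in pre-pro-B cells and was listed at 0 in pro-B cells, as were *Ndn* (0.0777 in pre-pro-B cells), *Asb4* (0.0108) and *Rasgrf1* (0.00630). *Peg10* and *Sgce*, neighbours that share a control region, had 0.0987 and 0.0937 FPKM in pro-B cells beside 0.00530 and 0 in pre-pro-B cells. *Zdbf2* stood at 0.00289 and 0.0179 and *Snrpn* at 0 and 0.0118, pre-pro-B first, *Snrpn* with too little data by Cuffdiff's own status. *Ascl2*, *Dcn*, *Kcnq1*, *Magel2*, *Nap1l5*, *Peg3*, *Phlda2*, *Plagl1* and *Zim1* were listed at 0 in both, 28.1% of the members against 28.9% of all genes. A count of 0 allows an FPKM of up to 0.00271 to 0.0463 in pre-pro-B and 0.00298 to 0.0510 in pro-B cells, depending on transcript length, taking 3 fragments as the limit and counting error only.

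By the parental allele that each gene is known to be expressed from, 5 of 17 paternally expressed members had at least 1 FPKM, of which 4 were lower in pro-B cells (*Igf2*, *Peg12*, *Mkrn3* and *Ddc*) and *Impact* was within 2-fold. Of 14 maternally expressed members, 7 had at least 1 FPKM, with 2 lower (*Igf2r* and *Grb10*), 1 higher (*Commd1*) and 4 within 2-fold. Of all genes, 19.1% were lower and 12.2% higher. All 4 of the lower paternally expressed genes, and *Grb10*, had passed the limit through pre-pro-B cells alone. The imprinting of *Cd81*, *Tssc4*, *Dcn*, *Commd1* and *Ddc* is known from some tissues only. By domain, among genes with at least 1 FPKM, both genes of the *Grb10* domain were lower. So were 2 of 3 in the Prader-Willi and Angelman domain (6 genes in all) and 1 of 4 in the *Igf2* and *Kcnq1* domain (8 in all). Each gene counted as lower in these domains had passed the limit through pre-pro-B cells alone and had to be lower. These counts are therefore no support for a shared change of a domain. In the *Peg10* domain (3 genes) and the *Peg3* domain (2 genes), 0 reached 1 FPKM.

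Non-coding RNAs of the same domains were measured alongside, and among 9 that were found 5 had at least 1 FPKM, with 3 lower in pro-B cells, 0 higher and 2 within 2-fold. Of all protein-coding genes under the same limit, 19.1% were lower and 12.2% higher. *H19* and *Nespas* passed the limit through pre-pro-B cells alone and had to be lower, so the count is no support for a difference of these RNAs. *H19*, the maternally expressed neighbour of *Igf2*, had 22.4 FPKM in the pre-pro-B library (interval 2.13 to 43.0) against 0.721 in the pro-B library (0 to 2.05), a difference of -3.76. Both genes of this pair were lower in pro-B cells, but *Igf2* too had passed the limit through pre-pro-B cells alone. Their shared direction is therefore no support for a link. *Airn*, transcribed antisense through the start of *Igf2r* from the paternal allele and known to silence it there, had 15.0 FPKM and 1.39 in the same order, summed over 4 short transcripts, so *Airn* and *Igf2r* also stood lower together. *Nespas*, antisense in the *Gnas* locus, had 7.96 FPKM in the pre-pro-B library (interval 0 to 41.0) against 0.0192 in the pro-B library, opposite to the direction of *Gnas*. *Kcnq1ot1*, the antisense RNA of the *Kcnq1* domain, had 7.19 FPKM and 6.96. In the same domain *Kcnq1*, *Phlda2* and *Ascl2* were listed at 0 in both libraries, *Slc22a18* was below 1 FPKM, and *Cd81*, *Tssc4* and *Cdkn1c* were above it. *Peg13* had 11.6 and 11.0. *Meg3*, the maternally expressed partner of *Dlk1*, had 0.00245 FPKM and 0.0329. The libraries and the alignment were strand-specific, which bears on how reads of *Airn* and *Nespas* were told from those of the overlapping genes.

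**Figure D4:**
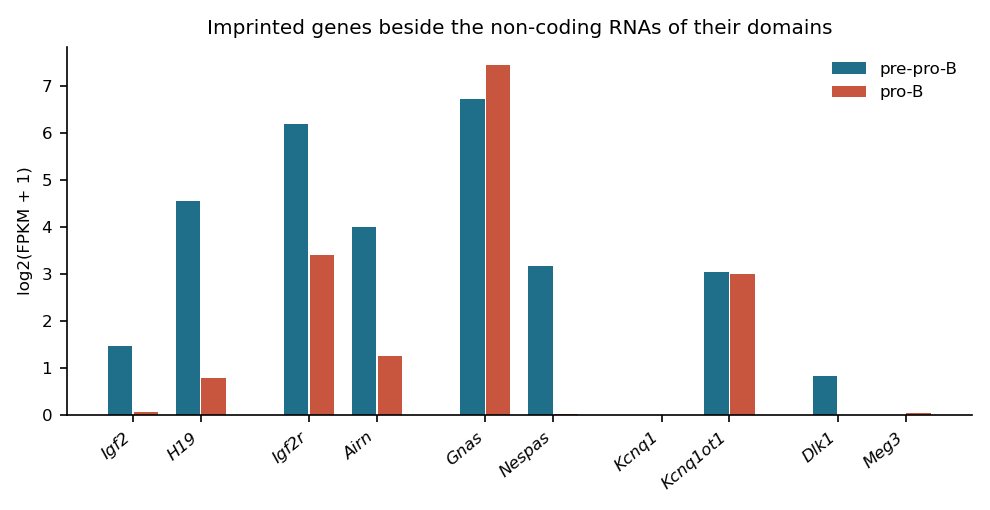
Level as log2(FPKM + 1) of 5 members, each beside a non-coding RNA of its domain, with 1 library for each cell type (blue pre-pro-B, red pro-B). *Igf2* and *H19*, and *Igf2r* and *Airn*, are lower together in pro-B cells, *Gnas* and *Nespas* differ in opposite directions, and *Kcnq1ot1* is near level. *Igf2*, *H19* and *Nespas* reached 1 FPKM in pre-pro-B cells alone and had to be lower. *Kcnq1* is listed at 0, unlike *Cd81*, *Tssc4* and *Cdkn1c* of its domain, which are not drawn.

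Of 16 genes that set or maintain imprints, 13 had at least 1 FPKM, of which 10 were within 2-fold, 2 higher and 1 lower in pro-B cells. Of all genes under the same limit, 12.2% were higher and 19.1% lower. *Uhrf1*, which brings the maintenance methyltransferase to newly copied DNA, had 27.2 FPKM in the pre-pro-B library against 75.6 in the pro-B library, and the chromatin remodeller *Hells* had 30.3 and 97.6. The maintenance methyltransferase *Dnmt1* itself had 47.5 FPKM and 95.2, a difference of 0.99 on the log2(FPKM + 1) scale, just under the limit of 2-fold that was applied on that scale. *Dnmt3b*, a methyltransferase that sets new marks, was lower, at 19.9 and 2.95. The corepressor *Trim28* (92.6 and 67.0), the insulator protein *Ctcf* (42.3 and 70.3), *Smchd1* (71.8 and 114) and the zinc finger gene *Zfp445* (56.2 and 43.9) were within 2-fold. *Zfp57* had 0.0155 FPKM and 0.0920, and *Dppa3* was listed at 0 in both.

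In the insulin-like growth factor pathway, in which *Igf2*, *Igf2r* and *Grb10* act, 5 of 13 further genes had at least 1 FPKM, with 3 lower, 1 higher and 1 within 2-fold. Of all genes under the same limit, 19.1% were lower and 12.2% higher. The lower genes were *Igf2bp3*, an RNA-binding protein of *Igf2* messenger RNA and of fetal cells, with 63.9 FPKM in the pre-pro-B library against 1.61 in the pro-B library, the insulin receptor *Insr* with 17.2 and 6.25, and the receptor substrate *Irs1* with 6.51 and 2.04. *Irs2* was higher, at 1.01 and 4.22, and the binding protein *Igfbp4* was within 2-fold, at 128 and 76.2. *Igf1r*, the receptor through which Igf2 signals, had 0.0326 FPKM and 0.0334. Of 8 genes known from fetal progenitors, 3 had at least 1 FPKM and all 3 were lower in pro-B cells, *Igf2bp3* together with *Hmga2* (44.0 and 0.328) and *Arid3a* (30.6 and 6.42). *Lin28b* had 0.152 FPKM in the pre-pro-B library and was listed at 0 in pro-B cells. Over the whole list, 5 genes were lower in pro-B cells in number and 2 higher (*Igf2bp1* with 0.00377 and 0.0141, *Igf2bp2* with 0.376 and 0.466), *Hmga2* had passed the limit through pre-pro-B cells alone, and age and tissue of origin cannot be told apart from cell type here.

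Other imprinted protein-coding genes, outside the 32, were mixed. Of 31 found, 17 had at least 1 FPKM, with 5 lower in pro-B cells, 3 higher and 9 within 2-fold, where 19.1% of all genes were lower and 12.2% higher. *Slc22a3*, an organic cation transporter of the *Igf2r* domain that *Airn* is known to silence in placenta, had 18.5 FPKM in the pre-pro-B library against 0.0459 in the pro-B library, a difference of -4.22 and in the same direction as *Igf2r*. It had passed the limit through pre-pro-B cells alone and had to be lower, so the shared direction is no support for a link. *Phactr2* (5.05 and 0.107), also lower, had passed in the same way, and *Pon3* through pro-B cells alone. *Atp10a*, next to *Ube3a* in its domain, had 56.4 and 9.14, while *Tspan32* (33.9 and 15.2) and *Tnfrsf26* (27.6 and 8.83) were lower in the *Kcnq1* domain. *Pon2* (5.82 and 36.4) and *Pon3* (0.182 and 16.8), paraoxonases of the *Peg10* domain, and *Sfmbt2* (6.62 and 18.5) were higher.

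Of 50 genes within 100 kb of a member, 27 had at least 1 FPKM, and 4 (14.8%) were lower and 4 (14.8%) higher in pro-B cells, against the 19.1% and 12.2% of all genes. Their names were read after the values were seen. Higher were *Fignl1* near *Ddc* (FPKM 26.2 in the pre-pro-B library against 87.8 in the pro-B library), *Mrpl18* near *Igf2r* (52.7 and 116), *Herc3* near *Nap1l5* (0.284 and 6.50) and *Pon2* near *Asb4*. Lower were *B3gnt2* near *Commd1* (75.2 and 33.0), *Morf4l1* near *Rasgrf1* (4.37 and 0.754), *Phactr2* near *Plagl1* (5.05 and 0.107) and *Tspan32*. *Herc3* had passed the limit through pro-B cells alone, and *Morf4l1* and *Phactr2* through pre-pro-B cells alone, so their directions were fixed. Some neighbours, *Pon2*, *Phactr2* and *Tspan32* among them, also belong to the other imprinted genes above.

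Markers of other cells that the cultures could hold were examined beside these values. The 16 stromal genes summed to 24.3 FPKM in the pre-pro-B library against 24.4 in the pro-B library, but *Pdgfrb* alone (15.9 and 0.377) made up most of the former. In number 13 of 16 were higher in pro-B cells and 2 lower, with 4 over 2-fold higher, 1 (*Pdgfrb*) over 2-fold lower and a median difference of 0.84 over those with at least 1 FPKM. The stromal matrix gene *Dcn*, itself a member, was listed at 0 in both. Of 10 hepatic genes 8 were listed at 0 in both libraries, *Alb* and *Afp* among them, and their summed FPKM was 1.95 in the pre-pro-B library against 0.0510 in the pro-B library. All 8 erythroid genes found were below 1 FPKM, with sums of 1.40 and 0.232, and 6 endothelial genes summed to 1.55 and 0.0650. Of 8 myeloid and mast cell genes, 4 had at least 1 FPKM, and all 4 were over 2-fold lower in pro-B cells, against 19.1% of all genes. *Mpo* (35.7 FPKM and 0.122), *Cpa3* (10.5 and 0.0296) and *Lyz2* (5.39 and 0) passed the limit through pre-pro-B cells alone. They had to be lower, as had most of the lower members, so the shared direction is no support for a link. *Itgam* (19.7 and 6.40) passed in both libraries. The list summed to 71.9 in the pre-pro-B library against 6.55 in the pro-B library, while *Elane* and *Ms4a2* were at 0 in both, and its part in the members' differences was not tested. In such bulk samples, fewer cells that express a gene and less RNA in each cell cannot be told apart.

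RefSeq start-site windows were found for 26 of the 32 members, 42 windows in all, and none for *Cdkn1c*, *Dcn*, *Impact*, *Kcnq1*, *Peg10* and *Sgce*. With the CpG-richest window taken for each gene, the members had a median of 19 CpG in 300 bases and 80.8% had at least 10, against a median of 16 and 62.4% over 16216 protein-coding genes of the FPKM table. Among members with at least 1 FPKM, that window held between 5 CpG (*Ddc*) and 45 CpG (*Grb10*). The hexamer TGCCGC was found, on either strand, in 10 of 42 member windows (23.8%), against 14.7% of the windows of protein-coding genes and 11.6% of all 32851 windows, with matches for *Grb10*, *Commd1* and *Igf2* among the members with a difference past 2-fold. The letters TATAAA, searched on both strands and not overlapping the hexamer, were in 23.8% of member windows and 12.3% of those of protein-coding genes. Some windows of a gene overlap, and with the CpG-richest window of each gene alone the hexamer was in 26.9% against 15.4% and TATAAA in 19.2% against 12.6%. A match is a description of the sequence, and the windows do not include the control regions of most domains, which lie elsewhere.

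**Figure D5:**
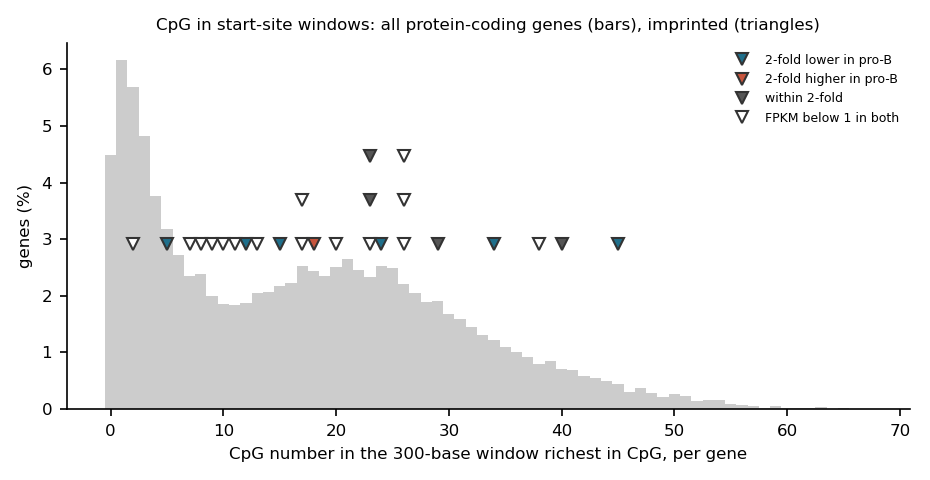
Number of CpG in the CpG-richest 300-base start-site window of each gene, as the percentage of 16216 protein-coding genes (grey bars) and for 26 members (triangles, stacked where equal and coloured by their difference in FPKM). The members spread from 2 to 45 CpG, and those lower in pro-B cells from 5 to 45.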

How the data were processed

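RNA-seq of 1 pre-pro-B and 1 pro-B library was analysed. The authors deposited FPKM for each RefSeq transcript, estimated with Cuffdiff 2.1.1 after alignment of rRNA-depleted, strand-specific reads to mm9 with TopHat (1.5 per the submitters' processing notes, another version in the study's parameter list). They used multi-read and bias correction and deposited 95% limits from a model without replicates (dispersion estimated blind over both libraries). The RNA clean-up removed short RNAs, which are therefore not covered. A further deposited table of the authors' own comparison (fold values, p-values and q-values) was not used.

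Of 30485 transcripts, 26968 were protein-coding, and a RefSeq table named 26555 of them (413 had no name), giving 20250 genes, 3836 with several transcripts, as had 15 of the 32 members. FPKM were summed per gene, and differences used a pseudocount of 1, which understates the change of low genes. A gene counted as higher or lower past 2-fold with at least 1 FPKM in either library. Fragments were approximated from FPKM, transcript length and the aligned reads the study states. The table's loci overlapped the GENCODE vM1 gene on mm9 for 32 of 32 members, and gene coordinates are from GENCODE. Windows come from RefSeq on GRCm38.p6, and no coordinate was moved between builds. Every member with at least 1 FPKM in either library was named with its values, the others once, and other genes came from fixed lists (imprint setting and maintenance, insulin-like growth factor pathway, fetal progenitor, other imprinted, non-coding and marker genes), save where stated. The members and lists, and the parental alleles and roles assigned from general knowledge, were chosen with earlier results of these data known. Alternatives were other pseudocounts (0.1 and 5), limits on FPKM, folds, scalings (TPM and median ratio), transcript choices and a neighbour distance of 250 kb. Scripts were tested on simulated data and run with Python 3.11.15, numpy 2.4.6, pandas 2.3.3 and matplotlib 3.10.9.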

Additional observations from a re-analysis of the deposited data

Results flagged for a closer look

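A pair of transcripts that carried no matched gene name lay in the locus of *Ube3a* and was left out of every sum, and both had signal above the level that a count of 0 allows. The protein-coding NM_173010 had 4.32 FPKM in the pre-pro-B library (interval 0 to 23.6) against 4.45 in the pro-B library (0 to 23.1). The non-coding NR_033229 had 0.383 FPKM in the pre-pro-B library against 0.928 in the pro-B library. With the protein-coding one added, the median difference of the 13 imprinted genes was -0.46.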

How the results depend on the processing

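No paired analysis was possible because each cell type had 1 library, and for the same reason no replicate could be left out. The count of 6 imprinted genes lower in pro-B cells became 2 with a pseudocount of 5, 2 with at least 5 FPKM, 2 at 4-fold and 1 with at least 1 FPKM in both libraries, a limit chosen after seeing the data. The count of 1 higher became 3 with the most abundant transcript of each gene, 2 at 1.5-fold and 0 at 4-fold. Within 250 kb, 8 of 49 neighbouring genes were higher (16.3%) and 12 lower (24.5%), in place of 4 and 4 of 27. Over all genes, 1284 higher and 2013 lower of 10528 became 785 and 996 with a pseudocount of 5, 2114 and 3136 at 1.5-fold, and 452 and 786 at 4-fold. With at least 1 FPKM in both libraries they became 918 and 998 of 8852. An FPKM of at least 5 left 1066 and 1419 of 8543. TPM moved the median of all genes from -0.14 to -0.25 and that of the members from -0.49 to -1.03. On that scale 8 of 16 members that passed were lower, against 2722 of 11432 genes. TPM also took 4 genes outside the range that Cuffdiff's limits span on the FPKM scale, *Grb10* to -2.69, *Peg12* to -3.01, *Mkrn3* to -2.07 and *Ddc* to -3.91. The members' median turned positive, to 0.03, with at least 5 FPKM. No imprinted gene past 2-fold changed direction under these alternatives. *Gnas* ranged from 0.63 to 2.57 and *Cdkn1c* from 0.18 to 1.74, both highest with the most abundant transcript. Among the lower genes, *Igf2r* ranged from -2.96 to -2.40, while those near 0 in pro-B cells followed the pseudocount (0.1 to 5), *Ddc* from -5.42 to -1.01, *Peg12* from -4.64 to -0.57, *Grb10* from -4.03 to -0.49, *Igf2* from -3.69 to -0.42 and *Mkrn3* from -3.40 to -0.30.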
